A study of Homo sapiens with 4 samples.

Results

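The 44 genes described here are interferon-stimulated genes (ISGs), the set that cells switch on when they sense an interferon, and they were chosen by name from the non-control probes of the arrays, by a rule that uses no measured value, though with earlier results of these data known. All 44 were on the array, out of 25992 gene names, with 59 probes on 68 spots. They were measured in human proximal tubular cells (HPTCs), the cells that line the first segment of the kidney tubule, with 2 arrays of the HK-2 line (replicates 1 and 2, here called H1 and H2) and 2 of the RPTEC/TERT1 line (replicates 1 and 2, here R1 and R2). Papillomavirus genes immortalised HK-2, and the telomerase subunit TERT immortalised RPTEC/TERT1. On all 4 arrays the cells had gone without serum and supplements for 24 h before a 24 h stimulation with interleukin-1β (IL-1β, 10 ng/mL) together with empagliflozin (Empa, 500 nM), an inhibitor of the sodium-glucose cotransporter SGLT2. Every group thus carries both agents, and arrays of untreated cells or of IL-1β alone were not used here, so no value below is a response to either agent. Each line is cultured cells of a single origin, and the methods describe the arrays as biological duplicates.

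Interferons of types I and III signal through their receptors and the kinases JAK1 and TYK2 to a complex that includes STAT2 and IRF9 and binds the interferon-stimulated response element (ISRE) in front of its target genes. Interferon-γ acts through JAK1 and JAK2, and its target genes carry the gamma-activated site (GAS). IL-1β acts mainly through NF-κB, which in turn controls some ISGs and interferon genes. In the kidney tubule, as in other epithelia, ISG products degrade viral RNA, block viral entry and translation, and draw in lymphocytes.

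Of the 44 genes, 35 had a promoter window in RefSeq (GRCh38.p14, 250 bases before to 50 after the transcription start). The ISRE core (GAAA, 2 bases of any kind, GAAA), searched on both strands, was in the first window of 22 of the 35 (62.9%) and of 996 of all 27305 genes (3.65%). The GAS core TTCNNNGAA, which reads the same on both strands and may overlap an ISRE core, was in 10 of the 35 (28.6%) and in 7.88% of all genes. The following stretches of 60 bases, 5′ to 3′ on the strand of the gene, with the ISRE core in capitals (TTTC, 2 bases, TTTC where it lies on the other strand), are shown because their genes stand for each of the patterns described later. IFIT1, IFI27, IFITM1 and IFI44L were high on one pair of arrays, OAS3, DDX60, HERC5 and BST2 on the other pair, and CXCL10 and SAMD9 were not detected.
IFIT1 (chr10:89392488-89392547, plus strand): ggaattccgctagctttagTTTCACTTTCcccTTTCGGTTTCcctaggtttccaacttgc
IFI27 (chr14:94110609-94110668, plus strand): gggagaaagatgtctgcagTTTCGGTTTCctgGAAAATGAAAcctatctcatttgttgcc
IFITM1 (chr11:313975-314034, plus strand): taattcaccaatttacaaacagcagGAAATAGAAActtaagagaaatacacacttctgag
IFI44L (chr1:78620259-78620318, plus strand): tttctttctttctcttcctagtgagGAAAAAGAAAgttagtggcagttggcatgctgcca
OAS3 (chr12:112938306-112938365, plus strand): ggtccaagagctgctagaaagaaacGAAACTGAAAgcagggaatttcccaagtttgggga
DDX60 (chr4:168318789-168318848, minus strand): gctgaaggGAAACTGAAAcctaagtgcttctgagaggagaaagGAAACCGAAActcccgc
HERC5 (chr4:88456972-88457031, plus strand): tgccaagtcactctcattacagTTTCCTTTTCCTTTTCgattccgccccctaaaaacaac
BST2 (chr19:17405723-17405782, minus strand): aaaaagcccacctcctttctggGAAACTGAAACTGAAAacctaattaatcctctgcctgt
CXCL10 (chr4:76023684-76023743, minus strand): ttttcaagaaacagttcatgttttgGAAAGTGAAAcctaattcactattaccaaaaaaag
SAMD9 (chr7:93118081-93118140, minus strand): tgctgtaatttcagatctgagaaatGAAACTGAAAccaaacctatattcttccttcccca

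A level is given throughout as log2 of the processed spot signal over the 75th percentile of its array, so a level of 0 is the 75th percentile. Each array has a weakest scaled signal called well above background, and the highest of these, at -5.37, was the floor for all arrays. Signals under the floor were set to it, and a difference from a floor value is a lower bound. A signal called well above background could thus sit at the floor, as that of XAF1 did on H2. Each array had 43118 non-control spots, of which 59.2% to 64.9% were well above background, and its 75th percentile lay between 393 and 748 intensity units. Spots of probes printed 10 times had a median SD of 0.076 to 0.13 log2 units within an array, and the number of arrays, 2 a label, limits the precision. Levels of different genes come from different probes and are not compared with each other.

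The arrays did not group by their labelled cell line. Across the 16475 genes tested (well above background on at least 2 arrays), H1 correlated with R2 at r = 0.983 and H2 with R1 at r = 0.975, whereas the 2 arrays of HK-2 correlated at 0.847 and those of RPTEC/TERT1 at 0.833. These correlations run over genes, and genes are not independent replicates. Labels may therefore have been exchanged between arrays, which was not tested, and every difference between the labelled lines given here holds only if they were not. The labels were kept as they are, and every value is given with the array it came from. Of 16 proximal tubule markers, 12 were well above background on H1, 10 on H2, 8 on R1 and 12 on R2. CUBN, SLC22A6 and HNF4A, named after their values were seen, were not well above background on any array.

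Most ISG transcripts were detected on the arrays of both labels, and those of the chemokines among them that attract lymphocytes were not. Of the 44 ISGs, 35 were well above background on all 4 arrays, OAS1 on 3, and OASL, GBP5, RSAD2 and TRIM22 on 2, H1 and R2. Among the 25666 gene names with a value on every array, 13801 were well above background on all 4. CXCL9, CXCL10 and CXCL11, the ligands of CXCR3 on activated T cells, were not well above background on any array, and neither was SAMD9, an antiviral restriction factor. This leaves 40 genes for the comparisons. The 4 genes detected on 2 arrays passed only through the arrays on which they were high, so they had to differ between arrays.

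**Figure D1:**
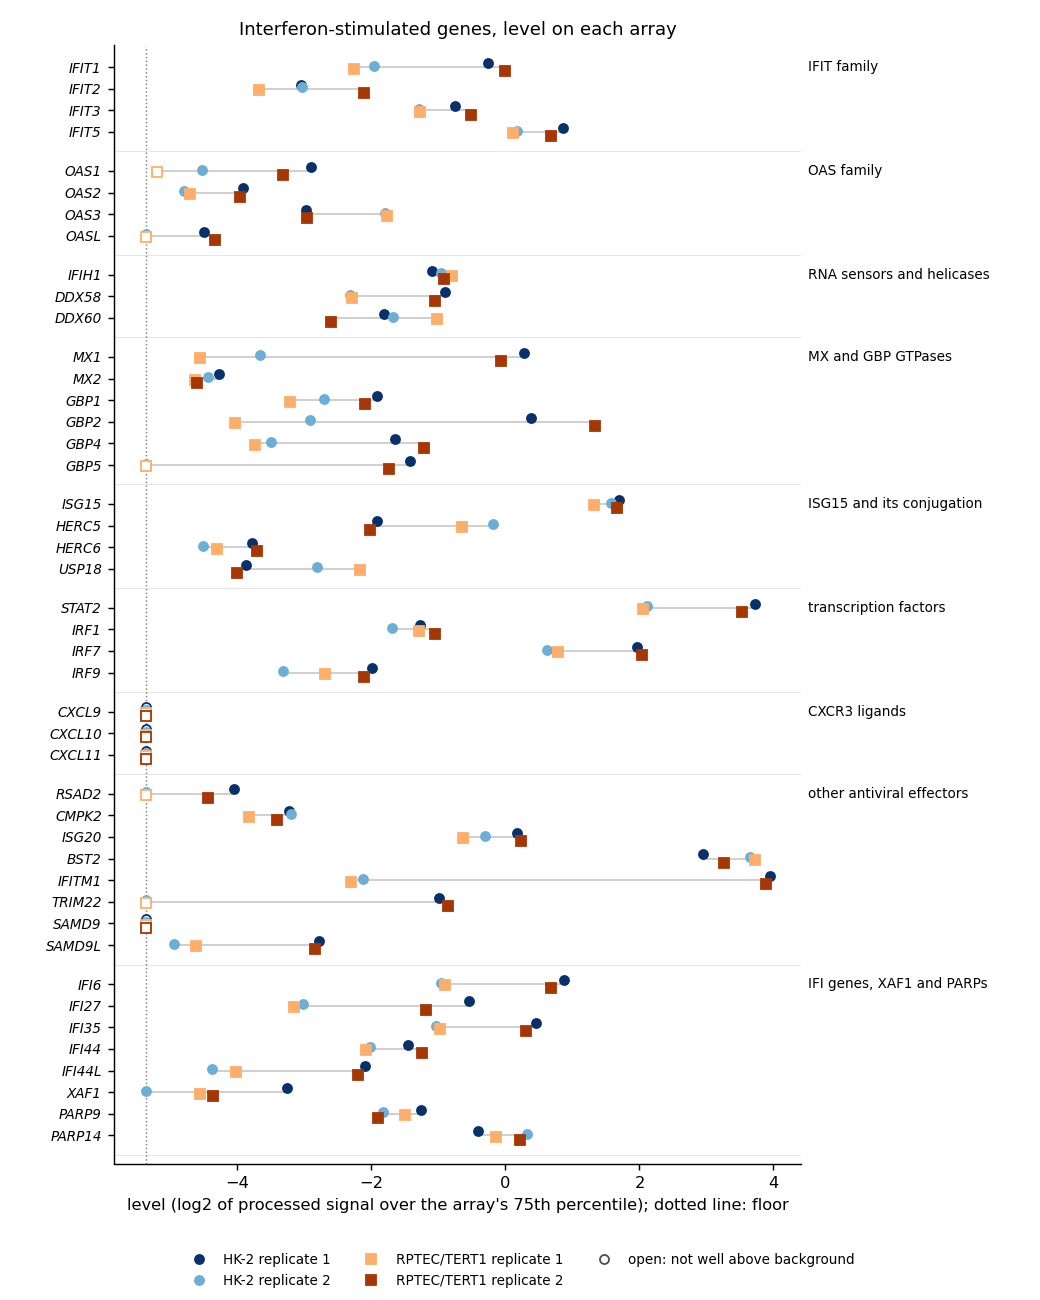
Level of each of the 44 interferon-stimulated genes (rows, grouped by role) on the 4 arrays, as log2 of the processed signal over the 75th percentile of the array; circles are HK-2, squares RPTEC/TERT1, dark symbols H1 and R2 (replicate 1 of HK-2 and replicate 2 of RPTEC/TERT1), and open symbols genes not well above background. Within most rows the dark symbols lie together at the right, and with this scaling HERC5, USP18, OAS3, DDX60 and BST2 run the other way, of which only BST2 does so with normexp background correction.

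The labelled cell lines were compared first, to see whether the ISG levels of stimulated HK-2 and RPTEC/TERT1 cells differ. No ISG passed the test of this difference. With limma over all 16475 genes, 0 of the 40 ISGs passed a Benjamini-Hochberg adjusted p of 0.05 and 0 an unadjusted p of 0.05, beside 0 (0%) and 23 of all genes. The median difference, HK-2 minus RPTEC/TERT1, was 0.050 log2 units over the ISGs and 0.017 over all genes, with a range over the ISGs from -0.31 to 0.61. All 40 differences were smaller than their standard errors, whose median was 0.70, so differences of this size would not have been detected.

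MX1, a GTPase that traps viral nucleocapsids, had the largest difference, 0.61 with a standard error of 2.08 (limma adjusted p = 1). Its level was -1.70 ± 2.78 in HK-2 and -2.31 ± 3.17 in RPTEC/TERT1 (SD, n = 2 each). For IFITM1, a membrane protein that blocks viral entry, the means were 0.91 ± 4.29 and 0.79 ± 4.37 (SD, n = 2 each). The spread between the arrays of a label was thus larger than the difference between labels in both genes.

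With this scaling only 3 ISGs had labels that did not overlap. MX2 and CMPK2, a mitochondrial nucleotide kinase, were higher on both HK-2 arrays than on both RPTEC/TERT1 arrays, a pattern that 4.36% of all genes showed, by 0.26 and 0.40 with standard errors of 0.42 and 0.44. IFIH1, the sensor of long double-stranded RNA, was higher on both RPTEC/TERT1 arrays, as were 2.82% of all genes, with levels of -1.09 and -0.96 in HK-2 and -0.80 and -0.91 in RPTEC/TERT1. No adjusted p was under 1 for these 3 genes. With normexp, and in the deposited log2 values centred on the 75th percentile, MX2 and CMPK2 were instead highest on H1 and R2. The MX2 probe that separated the labels was at -4.56, -5.08, -5.37 and -5.20 on H1, H2, R1 and R2. It was not well above background on R1 and R2. The other MX2 probe, at -3.99, -3.80, -3.89 and -4.00, did not separate them.

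**Figure D2:**
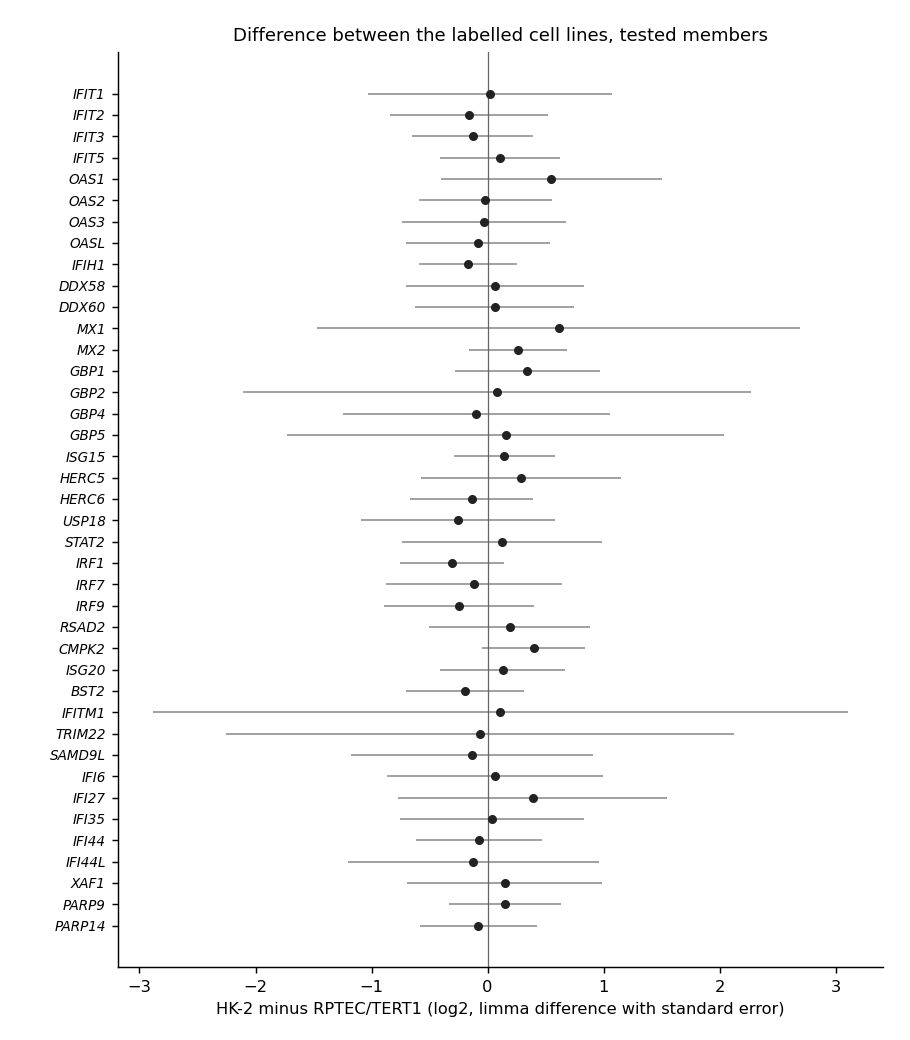
Difference between the labelled cell lines, HK-2 minus RPTEC/TERT1, on the log2 scale for the 40 tested interferon-stimulated genes (points), with the standard error of the limma fit (bars, n = 2 arrays a line). Every bar crosses 0, and the bars of IFITM1, GBP2, TRIM22, MX1 and GBP5 are the widest.

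Replicate 2 against replicate 1, which is also the second scan date against the first, gave the same count. Of the 40 ISGs 0 passed the adjusted threshold of limma and 0 the unadjusted one, beside 0 (0%) and 195 of all genes. The median difference was -0.029, and the largest, that of GBP2, was 1.04 with a standard error of 2.24. Within replicate 1, that is within the first scan date, 19 ISGs were at least 1 log2 unit higher on HK-2 than on RPTEC/TERT1 (19.6% of all genes) and 3 lower (16.4%). Within replicate 2, 3 were higher (15.9%) and 19 lower (17.8%). These counts include ISGs detected only on H1 and R2. The difference between the lines turned over between the scan dates.

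What varied was the level between the 2 arrays of the same label. On H1 the ISGs were higher than on H2 by a median of 0.87 log2 units (0.062 over all genes), 19 of 40 by at least 1 (17.7% of all genes), and 3 were lower by at least 1 (16.4%). On R2 they were higher than on R1 by a median of 0.89 (0.092 over all genes), 19 by at least 1 (22.1%), and 4 were lower (18.4%). The 40 include OASL, GBP5, RSAD2 and TRIM22, which passed only through H1 and R2 and so had to be higher there. Over the 35 ISGs detected on all 4 arrays the medians were 0.73 and 0.75, beside 0.084 and 0.15 over the 13801 genes so detected. Arrays of opposite labels were closer. H1 and R2 were at least 1 log2 unit apart in 1 ISG (4.90% of all genes), and H2 and R1 in 1 (6.79%). These are differences between single arrays and have no test, and in RNA from whole cultures fewer cells that express a gene and less RNA per cell cannot be told apart.

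Both H1 and R2 lay above the other arrays, here called the main order, in 29 of the 40 ISGs (38.8% of all genes), in 16 of them by at least 1 log2 unit (11.7%). The reverse, H2 and R1 above, held for 5 ISGs (33.2% of all genes), in 3 by at least 1 (11.0%). Among the 35 ISGs detected on all 4 arrays the counts were 24 and 5 (40.6% and 31.4% of the 13801 genes so detected). Quantile normalization gave 29 and 5 of 40, with the same genes in each. With normexp background correction the counts were 31 and 1 of 40, with 41.8% and 13.8% of all genes. In the log2 values the authors deposited they were 23 and 1, with 21.9% and 14.0%, and in those values centred on the 75th percentile 31 and 2, with 43.6% and 16.4%. Of the 29, normexp kept the main order in 28, all but ISG15, and the deposited values in 22. Of the 5, BST2 kept the reverse order under each of these scalings. The scalings also moved all genes, since the median of H1 minus H2 over all genes was 0.99 with normexp, 0.51 in the deposited values and 0.73 in the centred ones.

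**Figure D3:**
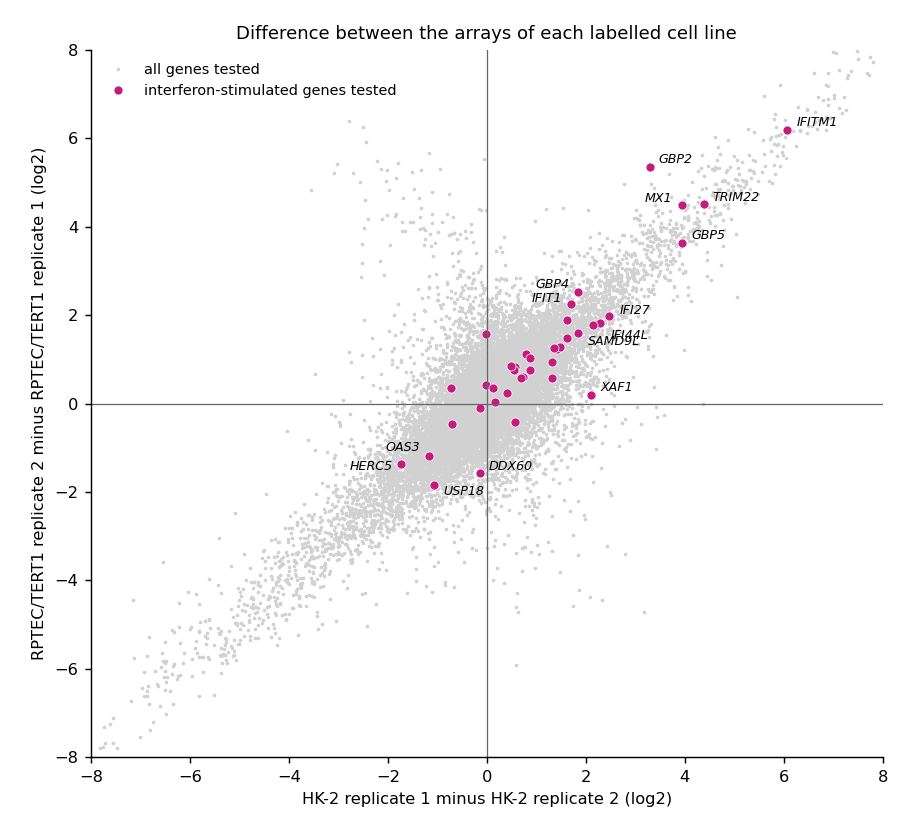
Difference between the arrays of each label on the log2 scale, H1 minus H2 (horizontal) against R2 minus R1 (vertical), for the tested interferon-stimulated genes (large points) and all 16475 genes tested (grey, of which 16 lie outside the axes). Most ISGs lie in the upper right, IFITM1 farthest out, and HERC5, OAS3, USP18 and DDX60 lie in the lower left, where with normexp the horizontal difference of OAS3, USP18 and DDX60 turns.

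The following levels are given in the order H1, H2, R1 and R2. Among the MX and GBP GTPases, which act on viral particles and on the vacuoles of intracellular pathogens, 5 of 6 had the main order (6 with normexp, 4 in the deposited values). MX1 was at 0.27, -3.67, -4.55 and -0.07, which is 15.3-fold between the HK-2 arrays and 22.4-fold between the RPTEC/TERT1 arrays. GBP2 was at 0.38, -2.91, -4.03 and 1.33, 9.76-fold and 41.1-fold apart. Both genes were high on H1 and R2 with a wide gap to the other arrays, an order kept with normexp, with quantile normalization and in the deposited values.

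GBP5, which promotes inflammasome assembly, was at -1.42 and -1.74 on the high arrays and not well above background on the others, so at least 15.5-fold apart in HK-2 and at least 12.4-fold in RPTEC/TERT1. GBP4 was at -1.65, -3.49, -3.74 and -1.21. GBP1, at -1.92, -2.71, -3.22 and -2.10, had the same order with a smaller gap and lost it in the deposited values. The 6th gene of the group, MX2, spanned only 0.36 log2 units. GBP1, GBP2, GBP4 and GBP5, neighbours on chromosome 1, thus shared the order of the arrays, GBP1 with that exception.

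The widest span among the 44 belonged to IFITM1 (printed above with a core near its start). Its level was 3.94, -2.13, -2.30 and 3.89, or 67.3-fold between the HK-2 arrays and 72.8-fold between those of RPTEC/TERT1. Its 2 probes gave 4.42, -1.69, -1.97 and 4.47, and 3.46, -2.57, -2.63 and 3.30. The sequences of the IFITM genes are similar, and IFITM2 and IFITM3, which are not among the 44, had the same order at 5.20, -1.10, -1.41 and 5.31, and 5.85, -0.18, -0.18 and 5.84. Whether their probes also bind each other's transcripts was not tested.

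TRIM22, an antiviral ubiquitin ligase, was at -0.99 and -0.86 on H1 and R2 and not well above background on the other arrays, at least 20.8-fold and at least 22.8-fold apart. SAMD9L, the paralog and neighbour of SAMD9, was at -2.79, -4.94, -4.62 and -2.85. RSAD2 (viperin), which makes a chain-terminating nucleotide, was at -4.05 and -4.44 on the same high arrays, close to the floor. ISG20, an RNA exonuclease, spanned 0.85 log2 units with the same order, except in the deposited values. BST2 (tetherin), which holds budding virions on the cell surface, ran the other way at 2.95, 3.65, 3.72 and 3.26, and CMPK2 spanned 0.62. Of the 8 genes of this group of effectors, 5 thus followed the main order, BST2 reversed it, and SAMD9 was not detected.

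In the IFIT family, whose products bind viral RNA that lacks host cap marks, IFIT1 was at -0.27, -1.96, -2.26 and 0.00 (3.24-fold and 4.79-fold). IFIT3 and IFIT5 followed the same order with spans of 0.78 and 0.74, except in the deposited values. IFIT2 did so with normexp and in the deposited values but not with this scaling, where it was highest on R2 and at -3.05 and -3.04 on the HK-2 arrays. Its brighter probe did follow the order, at -0.74, -1.57, -2.05 and -0.56, and its dimmer probe was detected on H2 and R2 only.

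The OAS family makes the second messenger that activates RNase L. OAS1 was at -2.90, -4.53, -5.21 and -3.32 and was not well above background on R1. OAS2 spanned 0.87 and OASL, a relative without the enzyme activity, 1.03, both with the same order, which OAS2 lost in the deposited values. OAS3, between OAS1 and OAS2 on chromosome 12, ran the other way at -2.98, -1.80, -1.77 and -2.96, 2.26-fold and 2.28-fold, except that with normexp its HK-2 difference turned to 1.22 against a median of 0.99 over all genes.

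ISG15 is a ubiquitin-like protein, HERC5 the ligase that attaches it and USP18 the protease that removes it and also blocks the type I receptor. ISG15 was nearly level at 1.70, 1.57, 1.32 and 1.66, and with normexp its order in HK-2 turned, to a difference of -0.83. HERC5 was at -1.92, -0.19, -0.65 and -2.03, and its probe was printed 10 times, with SDs over the spots of 0.16, 0.12, 0.062 and 0.089, beside gaps of 3.31-fold and 2.60-fold between arrays, which the error between spots, a technical one, does not test. USP18 was at -3.87, -2.81, -2.17 and -4.00. HERC5 and USP18 were thus low on the arrays on which most other ISGs were high, but with normexp the HK-2 difference of USP18 turned to 2.00 and that of HERC5 shrank to -0.03. In RPTEC/TERT1 the difference of HERC5, USP18 and OAS3 kept its direction with normexp, at -0.97, -0.71 and -0.65.

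Of the transcription factors of the response, all 4 had the main order, IRF1 only narrowly, and IRF1 lost it in the deposited values. STAT2 was at 3.72, 2.11, 2.05 and 3.54, a gap of 3.06-fold in HK-2 and 2.80-fold in RPTEC/TERT1. IRF7, the amplifier of type I interferon genes, was at 1.97, 0.62, 0.78 and 2.04. IRF1 spanned 0.63, at -1.28, -1.69, -1.30 and -1.06. Its level on H1 was only 0.014 above that on R1, less than the median SD between repeated spots. IRF9 was at -1.99, -3.32, -2.69 and -2.12 as the mean of probes that disagreed, the brighter at 0.51, -1.87, -1.11 and 0.43 and the dimmer between -4.76 and -4.27.

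The RNA sensors behaved differently from each other. DDX58 (RIG-I), which binds short RNA with 5′ triphosphates, was at -0.90, -2.32, -2.30 and -1.06, with one probe at -1.13, -1.82, -1.54 and -1.48 and the other at -0.68, -2.81, -3.05 and -0.64. IFIH1 (MDA5) spanned 0.29 log2 units. DDX60, a helicase that assists these sensors, ran the other way at -1.82, -1.68, -1.02 and -2.60, with a gap of 2.99-fold in RPTEC/TERT1 and 1.10-fold in HK-2, where normexp turned its difference to 1.10 against the 0.99 of all genes.

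Of the remaining 8 genes, 6 had the main order. IFI27, a mitochondrial protein, was at -0.55, -3.02, -3.16 and -1.18 (5.55-fold and 3.93-fold). IFI44L was at -2.10, -4.38, -4.03 and -2.21. IFI6 and IFI35, at 0.87, -0.96, -0.90 and 0.68 and at 0.45, -1.04, -0.98 and 0.31, had gaps of 2.44-fold to 3.57-fold. IFI44 spanned 0.83, less than its neighbour IFI44L.

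XAF1, an antagonist of the apoptosis inhibitor XIAP, was at -3.26, -5.37, -4.56 and -4.36, and its probes disagreed on which arrays detected it. PARP9 and PARP14, ADP-ribosyltransferases of the response, spanned 0.64 and 0.73 and had neither order. Of the 27 ISGs with a window in RefSeq and either order, the ISRE core was in 13 of 23 with the main order and in all 4 of the reverse one. Of these 4, OAS3, DDX60, HERC5 and BST2, only BST2 kept the reverse order with normexp and in the deposited values. The shares were not tested against each other.

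The upstream genes were read from lists of the pathway. Of 14 interferon names listed, 9 were on the array. IFNA2, IFNB1, IFNE, IFNK, IFNW1, IFNG, IFNL1 and IFNL3 were not well above background on any array, and IFNL2, a type III interferon, was at -3.27, -3.16, -3.64 and -2.97. Of the 9 measured, 8 were thus under the detection limit on the arrays with high ISG levels too, and IFNA2 was the only interferon-α gene among them.

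All 9 receptor and kinase genes were well above background on all 4 arrays. Of the 9, 5 had the main order and 2 the reverse, beside 38.8% and 33.2% of all genes. The main order held in 6 with normexp (41.8% of all genes) and in 5 in the deposited values (21.9%). IFNGR1 and IFNGR2, the chains of the interferon-γ receptor, were at 3.34, 1.83, 0.78 and 3.83, and at 1.35, -1.18, -1.12 and 1.23. JAK2 was at -1.34, -3.32, -3.37 and -1.74. The type I receptor chains IFNAR1 and IFNAR2 spanned 1.61 and 1.09 in the same order, IFNLR1 and TYK2 had the reverse order with spans of 0.34 and 0.72 but not with normexp or in the deposited values, and IL10RB and JAK1 had neither.

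Of 15 signalling genes on the array, 14 were tested, and 9 had the main order and 4 the reverse (38.8% and 33.2% of all genes). With normexp these were 9 and 4 (41.8% and 13.8%), and in the deposited values 7 and 3 (21.9% and 14.0%). IKBKE passed only through H1 and R2, and MB21D1 only through H2 and R1, so each had to be higher there. TMEM173 (STING), the adaptor of DNA sensing, was at 1.21, -3.41, -3.98 and 1.38, whereas MB21D1 (cGAS), the sensor that feeds it, was at -0.08 and 0.32 on H2 and R1 and not well above background on the others. SOCS1, an inhibitor of JAK kinases, was at 0.46, -2.49, -2.56 and 0.29. In limma 0 of the 9 receptor and kinase genes and 0 of the 14 signalling genes tested differed between the labels, adjusted or unadjusted.

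**Figure D4:**
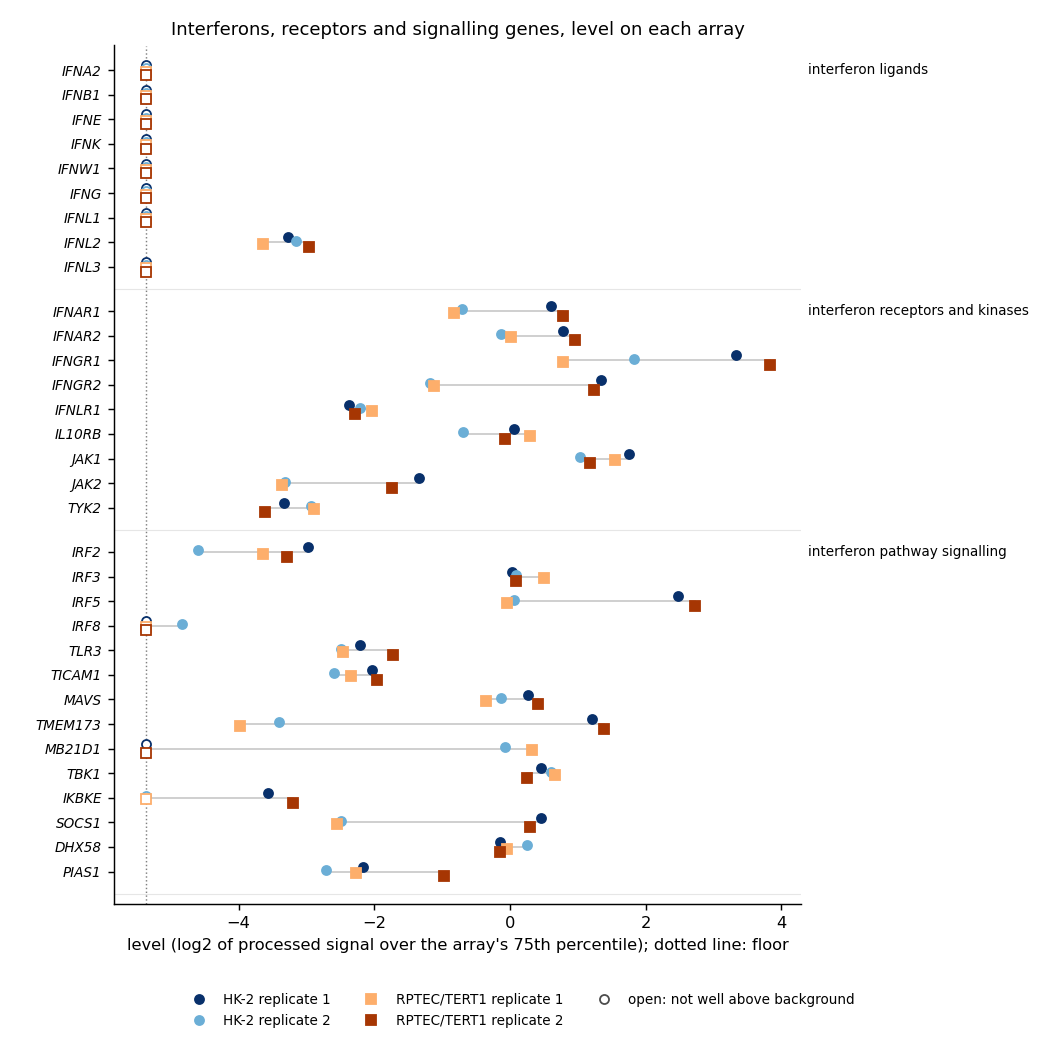
Level of the interferon, receptor and kinase genes and of 14 of the 15 signalling genes on the 4 arrays, on the same log2 scale and with the same symbols as the plot of the 44 genes. All ligands but IFNL2 sit at the floor, and TMEM173 and MB21D1 lie at opposite ends on the same arrays.

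Of a list of 37 further ISGs, not among the 44, 35 were tested, and 22 had the main order and 8 the reverse (38.8% and 33.2% of all genes). With normexp it was 20 and 4 (41.8% and 13.8%), and in the deposited values 14 and 3 (21.9% and 14.0%). TRIM5, RTP4 and EPSTI1 among the 22 passed only through H1 and R2 and so had to be higher there. In limma 0 of the 35 tested differed between the labels, adjusted or unadjusted. Genes outside the interferon response moved with the same arrays. Of 19 genes of the IL-1 and NF-κB response, 17 had a value on every array. Of these 17, 15 had the main order (13 with normexp) and 1, CCL20, the reverse. The median levels of the list, over the genes with a value on each array, were 4.72, 1.10, 1.44 and 4.84. TNFAIP2 counts in these medians on H1 and R2 only, and CXCL3 on all arrays but R2. Of 15 DNA replication genes, all 12 with a value on every array had the reverse order (10 with normexp). GINS2, RRM2 and CCNE2 among them passed only through H2 and R1 and so had to be higher there. The median levels of the list were -1.09, 2.24, 2.97 and -1.62, not over the same genes on each array. MCM6, RFC4 and TYMS had no value on H2 but count in the other medians, so the gaps between these medians are not those of the 12 genes. The part of these lists in the ISG levels was not tested.

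Markers of other cell types were read in the same way. Of 9 leukocyte markers on the array, 4, 5, 5 and 2 were well above background in the same order of arrays, and the log2 of their summed level ran from -1.17 to -0.52 in HK-2 and from -1.46 to -0.40 in RPTEC/TERT1. PTPRC and CD14 were well above background on all 4 arrays, CSF1R on H2 and R1 only (-2.09 and -2.07), at least 9.70-fold and 9.86-fold apart within the labels and opposite to most ISGs, and CD163 on none. Of 6 endothelial markers 2, 1, 1 and 2 were detected, summed levels ran from -1.66 to -1.17 and from -2.03 to -1.16, and VWF, KDR and TEK were not well above background. Of 6 fibroblast markers 1, 3, 3 and 0 were detected, with summed levels from -2.62 to 0.96 and from -2.70 to 0.57, and DCN and LUM were detected on H2 and R1 only. COL1A2, PDGFRA and PDGFRB were not well above background on any array, and the part of these markers in the ISG levels was not tested.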

How the data were processed

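Cy3-labelled RNA of stimulated HPTCs was measured on Agilent arrays in 1 colour. The authors deposited spot intensities from Agilent Feature Extraction 9.5.3.1, as processed signal with background subtracted and no scaling between arrays, and a series table of log2 values (processing not given in the sources used). For RNA isolation the methods name the innuPREP kit and the labels the RNeasy kit. Groups and replicate numbers came from the labels.

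Each processed signal was scaled to its array's 75th percentile, floored and taken to log2. Control spots and outlier spots were left out. Repeated spots were averaged to a probe. A gene is the average of the probes that 1 or more arrays called well above background, and of every probe where no array did. Where a probe lacked a value on an array, the complete probes of its gene were used. This gave 34127 probes. Probe positions in the files are on GRCh37, whereas promoters are RefSeq sequences on GRCh38.p14. Of the 59 member probes, the transcripts of 53 were in the RefSeq gene table, 51 under the same symbol and 2, of DDX58, as RIGI. Promoters of IFIT2, OAS2, OASL, MX2, GBP2, GBP5, USP18, IRF7 and TRIM22 were not used here.

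Genes well above background on at least 2 arrays were tested with limma 3.58.1 (lmFit and eBayes, R 4.3.3), HK-2 against RPTEC/TERT1 and replicate 2 against replicate 1, with Benjamini-Hochberg adjustment over all genes at 0.05. The fit was tested on simulated data whose spread was smaller than that of the ISGs within a label (median SD 0.82). That run therefore does not show which differences could be found on these arrays. Alternatives were normexp (offset 50), quantile normalization, the deposited log2 values, other filters and probe rules, a replicate block and leaving out each array. The text names every member, giving those with a span over 2 log2 units on all 4 arrays. The interferon-stimulated genes and all lists were chosen with earlier results of these data known. The symbols IFNA1, IFNA5, IL28A, IL28B, IL29, IL28RA, C6orf150, IL8 and LYZ were not matched on the array. A signalling gene and a leukocyte marker are counted in their lists but not reported here by name.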

Additional observations from a re-analysis of the deposited data

How the results depend on the processing

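No ISG passed the adjusted threshold of limma under any alternative run, in either comparison, whether HK-2 against RPTEC/TERT1 or replicate 2 against replicate 1. The median difference, HK-2 minus RPTEC/TERT1, stayed within the spread between arrays of a label (0.82). It was 0.34 with normexp and 0.64 in the deposited log2 values, and without 1 array it ran from -0.48 to 0.53, negative without H1 (-0.48) or R1 (-0.46) and positive without H2 (0.44) or R2 (0.53). The median ISG level, -1.88, became 7.86 in the deposited log2 values, which are not scaled to the 75th percentile, and -1.22 once these were centred on it. Without 1 array it ran from -2.19 to -1.61, and the count detected on all arrays left from 35 to 36. Between the labels 14 of the 40 differences moved by more than 1 SD with normexp, 17 in the deposited values and 6 in the centred ones. Without a filter on dim genes, 2 of 44 ISGs had an unadjusted p under 0.05 in limma between the replicate numbers, beside 786 of all 25666 genes. Replicates with the same number deviated from their label means with a correlation of -0.784, so the numbers are not taken as pairs. With the replicate number (and so the date of scanning) as a block, 0 ISGs passed and the median difference was 0.050, and with the crossed pairing, added after the data were seen, 0 of 16475 genes passed. No slide held more than 1 array, so the slide as a block was not run. Dimmer probes near the floor are limited by signal over background.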

Other observations

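Several ISGs that lie next to each other in the genome had different orders of the arrays. HERC5 and HERC6, whose probes are 63.2 kb apart on chromosome 4, had their highest levels on opposite pairs of arrays, HERC5 on H2 and R1 and HERC6 on the other pair. OAS3 has 2 probes on chromosome 12, 1 of them 16.4 kb from the nearest of OAS2 and the other 51.4 kb from that of OAS1. The probe nearer OAS1 was not well above background on any array and was not used. The levels of OAS3, from the other probe, ran opposite to those of OAS1 and OAS2. SAMD9 was not detected on any array, while SAMD9L, 30.4 kb away on chromosome 7, was detected on all 4. The nearest probes of RSAD2 and CMPK2 are 26.4 kb apart on chromosome 2, but neither was well above background on any array. Through the other probe of each gene, RSAD2 was detected on 2 arrays and CMPK2 on 4. By contrast IFI44 and IFI44L, 20.9 kb apart on chromosome 1, shared their order. With normexp the order of OAS3 and HERC5 was lost.

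The level of HERC6 averages 2 probes. The brighter gave -2.19, -3.64, -3.23 and -2.97 on H1, H2, R1 and R2, and the other was detected on R2 only. Of the 11 ISGs averaged over more than 1 probe, the probes of OAS2, DDX58, SAMD9L and IFITM1 each gave the main order, those of BST2 the reverse, and those of CXCL10 were not detected. The order was narrow in 1 probe of OAS2 (H1 at -4.00, R1 at -4.06) and 1 of DDX58 (R2 at -1.48, R1 at -1.54). The probes of the remaining 5, IFIT2, MX2, HERC6, IRF9 and XAF1, did not give the same order.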
